A study of Rattus norvegicus with 3 samples.

Results

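Keratins are the paired filament proteins of epithelial cells, and septins are filament-forming GTP-binding proteins found in most cell types. Both families were followed through 3 stages of the rat enamel organ, the tissue that makes tooth enamel. Members were taken by symbol, Krt or Sept followed by a number, and 36 of 16516 genes listed by the authors met this rule. They are 25 keratins, of which 15 are of type I and 10 of type II, and 11 septins. Enamel organs of 5 rats of the Wistar Hannover strain were dissected into 3 cell populations: the cervical loop, where the epithelium renews itself, secretory ameloblasts, and ameloblasts in maturation. The labels name no transgene and no treatment, and give neither age nor sex. Each stage is represented by 1 mean per gene in a unit that the sources used here do not state, so a mean carries no spread, and the variation between libraries is seen only through deposited p-values. An FDR, at gene level the p-value adjusted over all 16516 genes, of at most 0.05 counted as a pass. For transcripts and isoform make-up the FDR was taken as the authors gave it.

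Keratins work in pairs, a type I chain with a type II chain, and the filaments they build are anchored at desmosomes and hemidesmosomes. Krt5 and Krt14 are the pair of basal, dividing epithelium, and Krt8 and Krt18 the pair of simple, single-layered epithelium. Other keratins mark hair follicle layers, oral mucosa or stressed epidermis. Septins assemble into rods drawn from 4 sequence groups, named after SEPT2, SEPT3, SEPT6 and SEPT7. The rods line the membrane, the cleavage furrow and parts of the actin and microtubule networks, and a member of one group can often replace another of the same group. In the tooth, ameloblasts arise from the cervical loop, secrete enamel matrix as tall polarised cells, and later remove it while mineral fills in.

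The upstream sequences of genes whose levels differed are shown first, so that the motifs there can be set beside the levels. RefSeq start-site windows in the build GRCr8 matched 16 of 25 keratins and 8 of 11 septins. Krt7, Krt13, Krt14, Krt15, Krt16, Krt17, Krt19, Krt80 and Krt222 and Sept3, Sept5 and Sept6 were unmatched. The 250 bases before the start are printed 5′ to 3′. Capitals mark any match on either strand to 5 motifs, and matches that overlap run together. The box of the TATA-binding protein was searched as TATAAA. The box bound by Sp1, a factor of many housekeeping promoters, was searched as GGGCGG. The site of AP-2 factors, which act in ectoderm, was searched as GCCNNNGGC. The site of the AP-1 factors Fos and Jun was searched as TGANTCA, and the box bound by NF-Y as CCAAT. Krt5 and Krt42 are keratins that rose toward maturation, Krt8 and Krt18 a filament pair that moved apart, and Krt75 a keratin that fell. Sept10 and Sept11 are septins that fell.
Krt5, chr7:134730570-134730819, - strand: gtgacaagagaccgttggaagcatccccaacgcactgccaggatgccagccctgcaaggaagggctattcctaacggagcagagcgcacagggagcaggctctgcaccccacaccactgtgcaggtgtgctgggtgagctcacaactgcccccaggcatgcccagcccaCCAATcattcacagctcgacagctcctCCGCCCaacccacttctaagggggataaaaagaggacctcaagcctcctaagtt
Krt42, chr10:85692989-85693238, - strand: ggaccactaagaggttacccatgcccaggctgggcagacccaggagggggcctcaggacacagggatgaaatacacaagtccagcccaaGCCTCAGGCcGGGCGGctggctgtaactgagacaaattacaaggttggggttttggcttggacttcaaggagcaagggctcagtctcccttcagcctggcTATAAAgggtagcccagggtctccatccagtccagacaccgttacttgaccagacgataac
Krt8, chr7:135010340-135010589, - strand: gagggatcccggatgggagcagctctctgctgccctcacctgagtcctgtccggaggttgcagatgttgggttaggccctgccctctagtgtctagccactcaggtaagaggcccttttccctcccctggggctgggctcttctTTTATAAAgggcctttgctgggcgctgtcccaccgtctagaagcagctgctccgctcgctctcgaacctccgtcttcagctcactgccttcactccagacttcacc
Krt18, chr7:135035918-135036167, + strand: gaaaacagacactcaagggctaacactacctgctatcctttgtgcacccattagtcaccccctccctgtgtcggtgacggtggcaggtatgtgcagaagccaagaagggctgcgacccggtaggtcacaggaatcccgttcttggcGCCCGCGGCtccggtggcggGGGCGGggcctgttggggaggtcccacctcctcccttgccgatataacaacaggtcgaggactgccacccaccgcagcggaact
Krt75, chr7:134576075-134576324, - strand: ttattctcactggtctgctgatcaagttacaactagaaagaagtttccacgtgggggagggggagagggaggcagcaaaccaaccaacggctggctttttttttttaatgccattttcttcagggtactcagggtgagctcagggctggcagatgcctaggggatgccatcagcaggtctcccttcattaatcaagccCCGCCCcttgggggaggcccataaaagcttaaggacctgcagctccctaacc
Sept10, chr20:27737815-27738064, - strand: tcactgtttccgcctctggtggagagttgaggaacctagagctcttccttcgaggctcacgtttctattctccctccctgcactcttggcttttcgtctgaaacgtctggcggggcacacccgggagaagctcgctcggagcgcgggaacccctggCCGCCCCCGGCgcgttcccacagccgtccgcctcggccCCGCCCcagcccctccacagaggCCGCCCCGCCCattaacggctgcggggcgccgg
Sept11, chr14:15275201-15275450, - strand: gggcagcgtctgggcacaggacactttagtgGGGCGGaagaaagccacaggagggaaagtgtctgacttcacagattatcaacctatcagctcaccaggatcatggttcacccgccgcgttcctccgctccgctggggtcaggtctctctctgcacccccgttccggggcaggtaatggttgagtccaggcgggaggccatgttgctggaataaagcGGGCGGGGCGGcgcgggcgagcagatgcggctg
The septin windows shown are dense in capitals of the Sp1 kind. The only matches to TATAAA shown are those of Krt42, at -61 from the start site, and of Krt8, at -106 and -104. Near matches, such as gataaa before Krt5 and cataaa before Krt75, carry no capitals.

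Over all matched genes, 11 of 16 keratins and 0 of 8 septins held TATAAA, a motif found in 12.9% of 33469 windows of this length. The Sp1 box stood before 4 of 16 keratins and 7 of 8 septins, against 30.5% of all windows. Median GC content was 49.0% for keratins and 62.4% for septins, against 51.2% for all windows, and the median number of CpG pairs was 6 and 20.5, against 5. AP-2 sites were found before 3 keratins and 3 septins (12.6% of all windows), AP-1 sites before 1 keratin and 1 septin (6.34%), and CCAAT before 6 keratins and 3 septins (34.0%). These are matches of letters at any position in the window, not bound sites. Some genes had more than 1 window, 18 for the keratins and 13 for the septins, and a motif in any window of a gene counted. Krt18 and Krt8, next to each other in RefSeq gene order, differed here: Krt8 held TATAAA and no Sp1 box, Krt18 an Sp1 box and an AP-2 site and no TATAAA.

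The secretory and maturation stages matched their labels. In the authors' deposited table, the secretory markers Ambn, Amelx, Enam and Mmp20 were all higher in secretory cells than in the other stages, and all 5 maturation markers passed as highest in maturation. Markers of dental epithelial progenitors, set against the cervical loop, were mixed. Of 5, 3 were lower and 1, Igfbp5, higher in secretory than cervical loop cells, against 25.2% and 16.5% of all genes. RNA of other cells was present in each stage: 8 mesenchyme markers together took 2.23% of all means in the cervical loop, 1.68% in secretory cells and 2.87% in maturation per the authors' deposited table. Ambn, Amelx and Enam alone took 18.2% of all secretory means against 0.659% and 1.15%, which weighs on any share of the total. The authors' total column was 3.99, 3.99 and 5.01 times the stage means, so the number of libraries behind a mean is not settled, and the labels state that 1 cervical loop library was left out. Reads were single-end, 75 bases long, with 25000000 per library per the labels. In dissected tissue, fewer cells of a type and less RNA per cell cannot be told apart.

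The first question was how keratin levels differ as epithelial cells leave the cervical loop, secrete enamel and mature. The basal pair rose at each step, and the pair of simple epithelium came apart. Of 25 keratins, 5 were higher and 4 lower in secretory cells than in the cervical loop, where 16.5% and 25.2% of all genes passed in those directions. The 5 higher lie near that share and the 4 lower below it. From the secretory stage to maturation 10 were higher and 4 lower, against 21.8% and 21.1% of all genes. Between cervical loop and maturation 9 were higher and 5 lower, against 24.1% and 33.7%. The median log2 ratio of the keratins was 0.28, 0.53 and 0.60 in these 3 comparisons, and that of all genes -0.14, 0.01 and -0.12. These medians leave out genes with a mean of 0.1 or less, taken as the floor below which no fold is given.

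**Figure D1:**
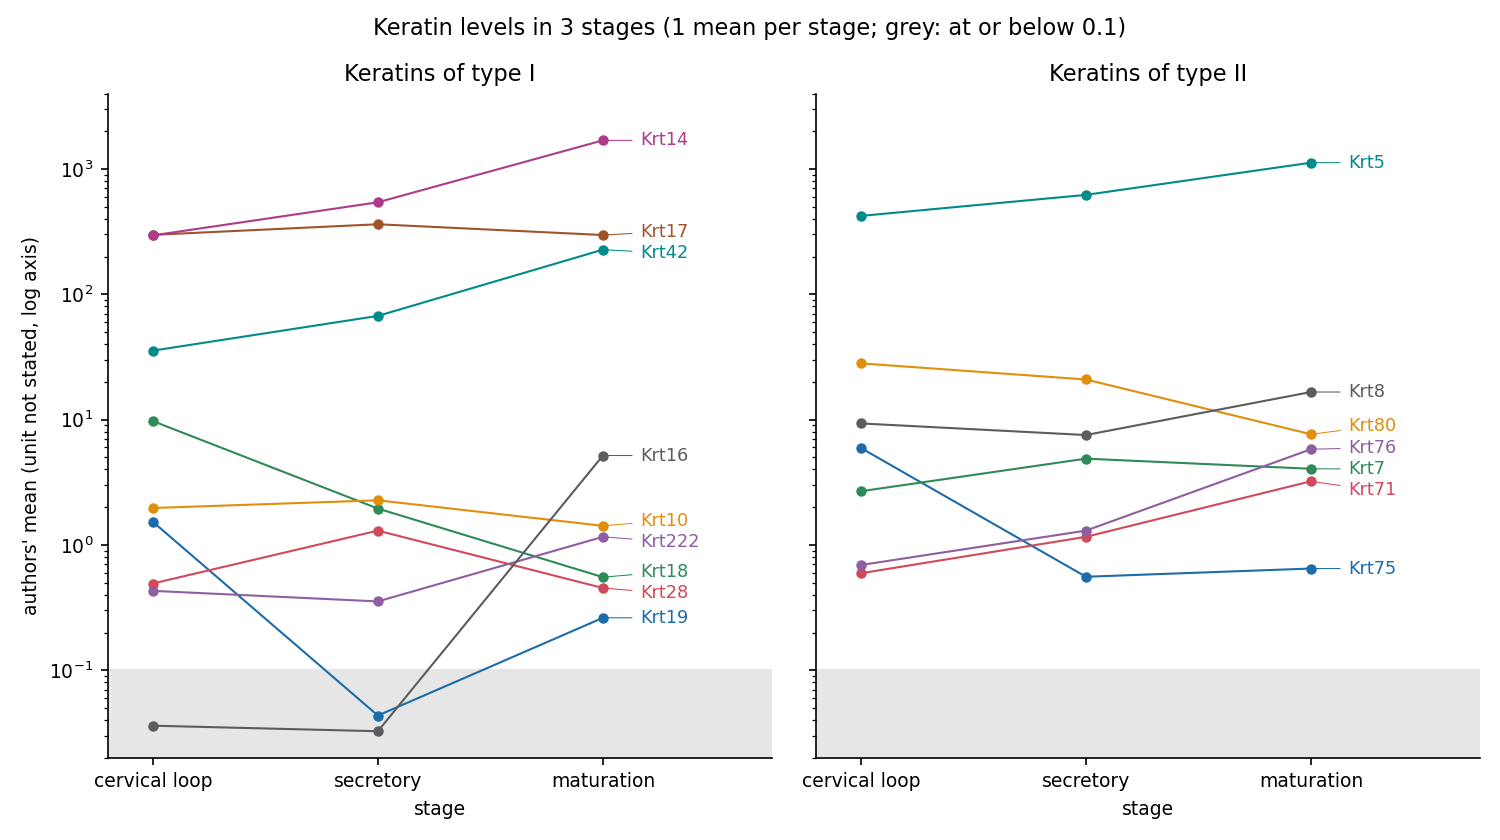
Authors' mean (log axis, unit not stated) of the 16 keratins that reached 1 in any stage, type I at left and type II at right. Each point is 1 stage mean without error, and the grey band marks values at or below 0.1. Krt14, Krt42 and Krt5 climb at both steps, Krt18 declines at both, and Krt17 lies between 297 and 362.

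Krt14 and Krt5, the type I and type II chains of basal epithelium, both rose, Krt14 by more. Krt14 stood at 295 in the cervical loop, 542 in secretory cells and 1691 in maturation per the authors' deposited table. It was 1.84-fold higher in secretory than cervical loop cells (FDR = 0.00172) and a further 3.12-fold higher in maturation (FDR = 3.94e-04) per the authors' deposited table. Maturation stood 5.73-fold above the cervical loop (FDR = 7.24e-05 per the authors' deposited table). Krt5 stood at 422, 621 and 1122 in the same order per the authors' deposited table. Its steps were 1.47-fold (FDR = 0.00561) and 1.81-fold (FDR = 0.00116), and 2.66-fold from end to end (FDR = 1.39e-04), per the authors' deposited table. The ratio of the Krt14 mean to the Krt5 mean thus moved from 0.699 to 0.873 and 1.51. The ratio itself was not tested, and its size depends on a unit whose scaling by gene length is not given.

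Krt42, a type I keratin of rodents, rose along with Krt14. Its means were 35.5, 67.2 and 227 per the authors' deposited table, 1.89-fold higher at the first step (FDR = 0.00700) and 3.38-fold at the second (FDR = 9.60e-04). The Krt42 mean stayed at 0.120, 0.124 and 0.134 of the Krt14 mean across the stages, but moved from 0.119 to 0.186 and 0.765 of the Krt17 mean. Krt16, Krt17 and Krt42 lie side by side in RefSeq gene order, and these genes and Krt14 are close in sequence. The sources used here do not give how reads that fit several of them were assigned, so the values of Krt14, Krt16, Krt17 and Krt42 are uncertain to that extent. Krt16, a keratin of wounded and pressure-bearing epidermis, was at the floor in the cervical loop (0.0361) and in secretory cells (0.0326) and reached 5.17 in maturation per the authors' deposited table. It passed against the cervical loop (FDR = 1.51e-04) and against secretory cells (FDR = 3.13e-04) per the authors' deposited table, and no fold is given against the floor.

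Krt17, a keratin of skin appendages and activated epidermis, did not pass at gene level. It stood at 298, 362 and 297, with FDR values of 0.134, 0.129 and 0.895, per the authors' deposited table. By the authors' estimates, however, its transcripts exchanged places. How reads that fit both transcripts, or also fit Krt14, Krt16 or Krt42, were assigned is not given in the sources used here. The transcripts were not compared in sequence, so their values are uncertain to that extent. The authors' deposited isoform tables split the gene into Krt17-201 and Krt17-202, and each table covers 1 pair of stages, so a stage has a value from each of its tables. Krt17-201 stood at 225 in the cervical loop, 232 to 237 in secretory cells and 84.4 in maturation per the authors' deposited tables. Krt17-202 stood at 68.8 to 69.3, 126 to 131 and 215 in the same order per the authors' deposited tables. The share of Krt17-202 in the sum of both went from 23.4% to 23.5% in the cervical loop through 35.2% to 35.6% in secretory cells to 71.8% in maturation.

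Both transcripts passed between secretory cells and maturation per the authors' deposited tables: Krt17-201 was 2.75-fold lower (FDR = 1.26e-04) and Krt17-202 1.71-fold higher (FDR = 0.00426). Against the cervical loop, maturation was 2.67-fold lower for Krt17-201 (FDR = 1.81e-04) and 3.10-fold higher for Krt17-202 (FDR = 5.55e-05) per the authors' deposited tables. From cervical loop to secretory cells Krt17-202 was 1.90-fold higher (FDR = 0.00315), while Krt17-201 did not pass (FDR = 0.837), per the authors' deposited tables. The make-up of the gene, tested by the authors in a column on alternative splicing by cell population, passed for maturation against secretory cells (FDR = 4.44e-04) and against the cervical loop (FDR = 6.26e-05) per the authors' deposited tables. It did not pass for secretory against cervical loop (FDR = 0.0915 per the authors' deposited tables). Between secretory cells and maturation, then, 1 transcript fell and the other rose, while the gene as a whole did not pass.

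**Figure D2:**
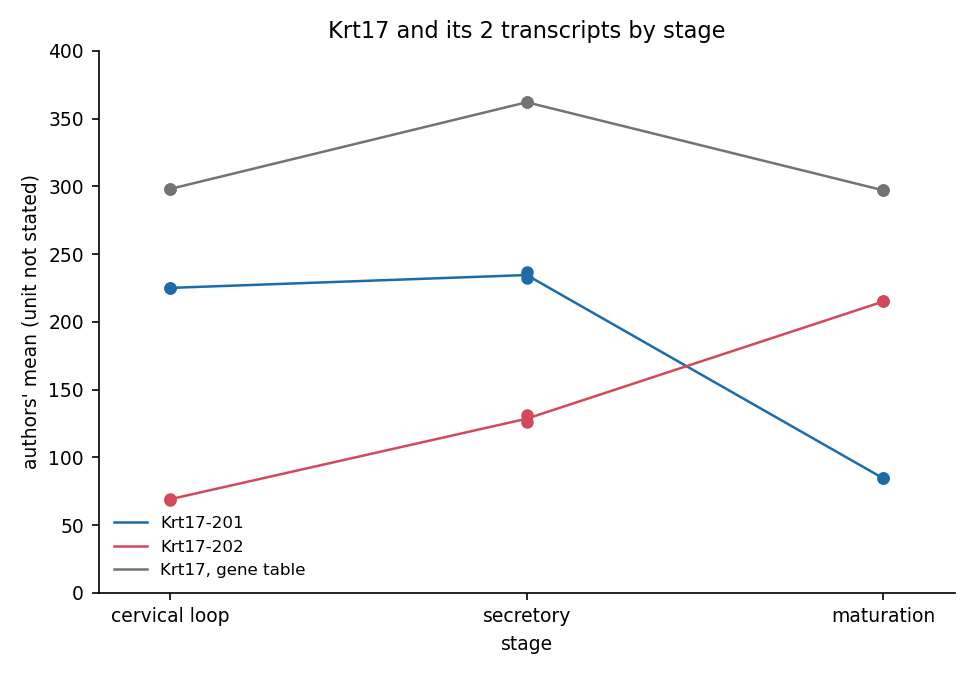
Authors' mean (unit not stated) of Krt17 and of its 2 annotated transcripts by stage. Points are the values of the separate deposited tables, and lines join their average. Krt17-201 drops to 84.4 in maturation while Krt17-202 climbs to 215, and the gene level returns to 297.

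No other member passed for make-up. The isoform tables held 7 keratins with 15 transcripts and 7 septins with 26 transcripts. For secretory against cervical loop 0 of these 14 genes passed, against 1.76% of 4143 genes. Krt17 was the single member to pass for maturation against secretory cells, where 2.49% of genes did, and against the cervical loop, where 2.97% did. Single transcripts of the keratins passed in 1, 4 and 7 of 15 cases for the 3 comparisons in order, and those of septins in 4, 3 and 6 of 26, against 16.0%, 17.0% and 25.2% of 9949 transcripts. The main transcript of Krt14, Krt14-201, stood at 251 in the cervical loop and 1710 in maturation (6.81-fold higher, FDR = 0.0128), and Krt5-201 at 350.0 and 938 (2.68-fold higher, FDR = 0.00570), per the authors' deposited tables. Minor transcripts of both genes, Krt14-202 and Krt5-203, carry means below 0 in some of the authors' deposited tables and are not read further, although both Krt5-203 passes count among those given here.

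The simple-epithelium pair moved in opposite directions. Krt18, its type I chain, stood at 9.73 in the cervical loop, 1.95 in secretory cells and 0.553 in maturation per the authors' deposited table. It was 4.99-fold lower at the first step (FDR = 0.00397), 3.52-fold lower at the second (FDR = 0.00706) and 17.6-fold lower from end to end (FDR = 2.50e-04) per the authors' deposited table. With 1 added to both means the last 2 folds were 1.90 and 6.91. Krt8, its type II partner, stood at 9.32, 7.53 and 16.6 per the authors' deposited table. It did not pass at the first step (FDR = 0.372) and was higher in maturation, 2.20-fold against secretory cells (FDR = 0.00954) and 1.78-fold against the cervical loop (FDR = 0.0206), per the authors' deposited table. The Krt18 mean relative to that of Krt8 went from 1.04 to 0.259 and 0.0334, a ratio that was not tested.

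The remaining keratins of simple and glandular epithelium were low. Krt19, a short type I chain, stood at 1.53 in the cervical loop, at the floor in secretory cells (0.0435, FDR = 0.0122) and at 0.262 in maturation, 5.83-fold below the cervical loop (FDR = 0.010), per the authors' deposited table. With 1 added to both means this fold was 2.0. Krt7, a type II keratin of ducts and glands, stood at 2.68, 4.88 and 4.05 and passed in none of the 3 comparisons (FDR = 0.131, 0.763 and 0.145) per the authors' deposited table.

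Krt75 and Krt80 were the type II keratins that were lower in maturation than in the cervical loop. Krt75, a keratin of the companion layer of the hair follicle that has also been described in enamel, stood at 5.94, 0.557 and 0.648 per the authors' deposited table. It was 10.7-fold lower in secretory cells (FDR = 4.52e-04) and 9.17-fold lower in maturation (FDR = 1.20e-04) than in the cervical loop, and the later stages did not differ by the test (FDR = 0.801), per the authors' deposited table. With 1 added to both means these folds were 4.46 and 4.21. Krt80, found near desmosomes of many epithelia, stood at 28.1, 20.9 and 7.64 per the authors' deposited table. It was 2.74-fold lower in maturation than in secretory cells (FDR = 0.0394) and 3.67-fold lower than in the cervical loop (FDR = 0.0103) per the authors' deposited table. Krt10, the type I keratin of suprabasal epidermis, stood at 1.97, 2.27 and 1.42, and was 1.60-fold lower in maturation than in secretory cells (FDR = 7.19e-04) and 1.39-fold lower than in the cervical loop (FDR = 0.00166) per the authors' deposited table.

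Among the keratins of low level, Krt76, Krt71 and Krt222 were highest in maturation and Krt28 in secretory cells. Krt76, a type II keratin of the palate, stood at 0.691, 1.30 and 5.80, and was 4.47-fold higher in maturation than in the secretory stage (FDR = 0.00401) and 8.39-fold higher than in the cervical loop (FDR = 6.55e-04) per the authors' deposited table. Krt71, of the inner root sheath of hair, stood at 0.594, 1.16 and 3.22, 2.77-fold (FDR = 0.0164) and 5.42-fold (FDR = 0.00192) higher in maturation per the authors' deposited table. Krt222 stood at 0.430, 0.354 and 1.16, with maturation 3.27-fold above secretory cells (FDR = 2.70e-04) and 2.69-fold above the cervical loop (FDR = 1.65e-04) per the authors' deposited table. Krt28, another inner root sheath keratin, stood at 0.492, 1.30 and 0.453, 2.63-fold above the cervical loop (FDR = 0.00177) and 2.86-fold above maturation (FDR = 8.35e-04) per the authors' deposited table. At these levels the added constant weighs heavily. With 1 added to both means the folds were 2.96 and 4.02 for Krt76, 2.65 for Krt71 against the cervical loop, 1.59 and 1.51 for Krt222, and 1.54 and 1.58 for Krt28.

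The other 9 keratins, Krt2, Krt4, Krt12, Krt13, Krt15, Krt25, Krt26, Krt27 and Krt79, stayed below 1 in every stage, between 0.0571 and 0.623 per the authors' deposited table. Across that limit, the nearest member below was Krt15 with a largest mean of 0.623 and the nearest above Krt222 with 1.16. Only Krt15 and Krt26 of the 9 passed in any comparison, and both are named after their values were seen. Krt15, a keratin of epithelial progenitors in skin, stood at 0.623, 0.125 and 0.411, 4.98-fold lower in secretory cells than in the cervical loop (FDR = 0.00878) and 3.29-fold higher in maturation than in the secretory stage (FDR = 0.0298) per the authors' deposited table. Krt26, of hair, stood at 0.271, 0.391 and 0.594 and passed as higher at each step (FDR = 0.0439 and 0.0311 per the authors' deposited table).

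Summed over the family, the keratin means came to 1114, 1637 and 3386, or 0.255%, 0.267% and 0.699% of all means in their stage. Type I chains summed to 644, 979 and 2226 and type II chains to 469.9, 658 and 1161, so that the ratio of type I to type II sums went from 1.37 to 1.49 and 1.92. Krt14 carried much of the family rise: without it the family sums were 819, 1094 and 1695. The rise of the ratio rests on Krt14 alone. Without Krt14 the type I sums were 349, 437 and 535, below the type II sums in every stage, and the ratio falls toward maturation. Krt5 likewise made up most of the type II sums, which were 47.7, 36.7 and 38.5 without it. The sums have no test.

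**Figure D3:**
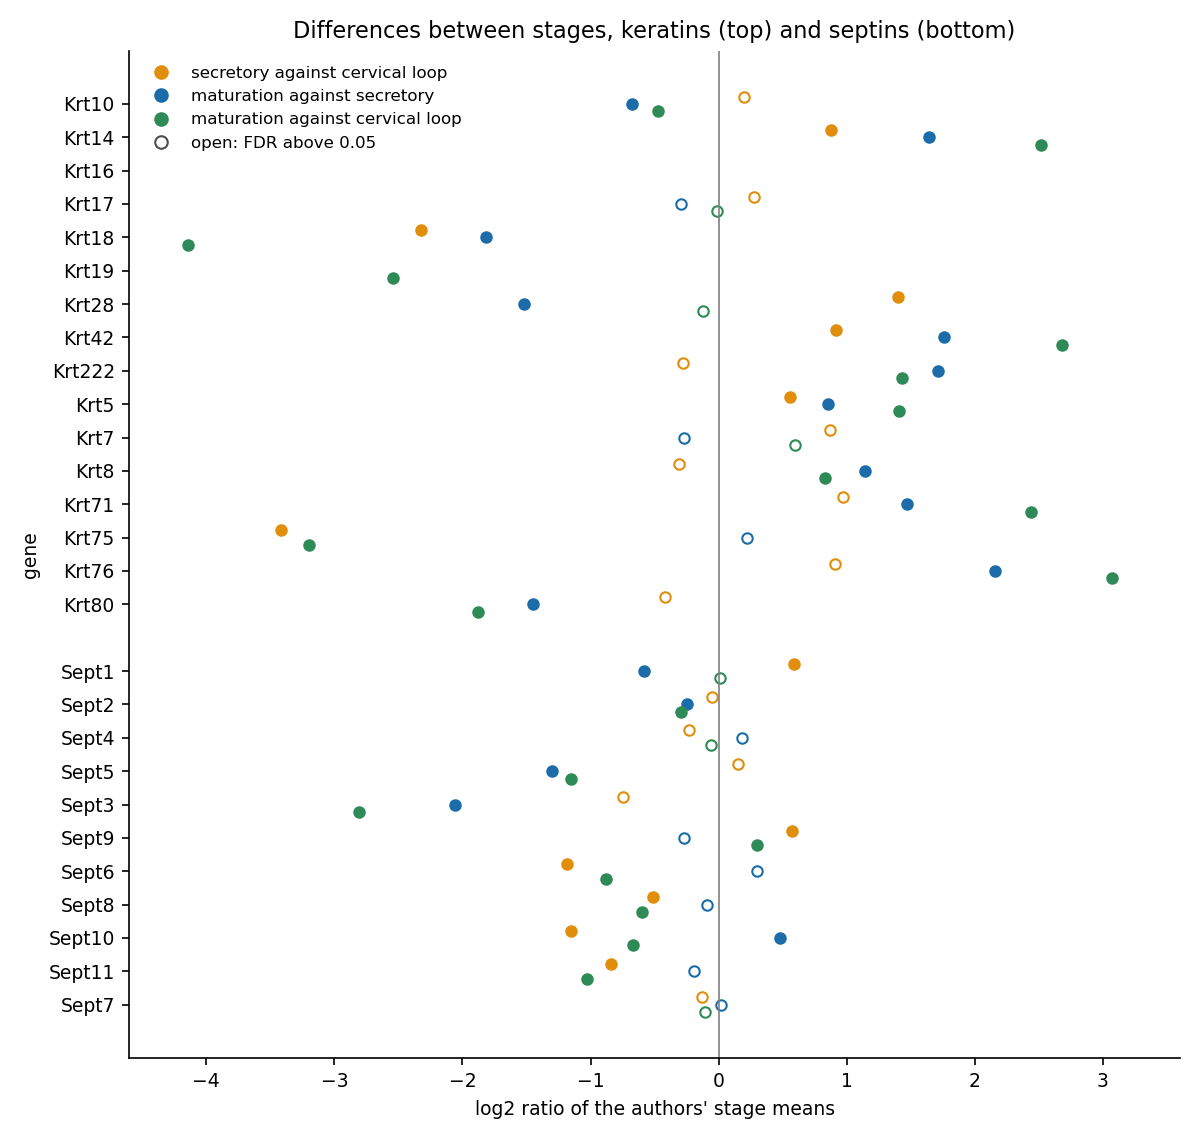
Log2 ratio of the authors' stage means for the 16 keratins that reached 1 in any stage (top) and the 11 septins (bottom). Filled points passed an FDR of 0.05 and open points did not, and pairs with a mean at the floor (all of Krt16, most of Krt19) have no point. Septin points lie nearer to 0 than those of many keratins.

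Keratin filaments depend on proteins that anchor and regulate them, and 26 of 31 such genes in a list of linkers and regulators were measured. Of these, 8 were higher and 4 lower in secretory than cervical loop cells, 11 higher and 4 lower in maturation than secretory cells, and 15 higher and 5 lower in maturation than cervical loop cells. Over all genes 16.5% and 25.2%, 21.8% and 21.1%, and 24.1% and 33.7% passed as higher and lower in the same comparisons. The median log2 ratio of the list was 0.09, 0.45 and 0.80. Desmoplakin (Dsp), which ties keratin to desmosomes, stood at 235, 146 and 689, 1.61-fold lower at the first step (FDR = 0.0442) and 4.72-fold higher at the second (FDR = 6.05e-04), per the authors' deposited table. Sfn, an epithelial 14-3-3 protein, stood at 20.3, 14.6 and 82.8, 5.69-fold higher in maturation than in the secretory stage (FDR = 3.01e-04) per the authors' deposited table. Trim29 stood at 19.6, 24.5 and 128, 5.22-fold higher over the same step (FDR = 3.55e-04) per the authors' deposited table. These 3 genes had the smallest p among listed genes that passed as higher from secretory cells to maturation. Their direction was thus fixed by that choice, and 4 listed genes passed as lower over the same step.

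Fam83h, which brings a casein kinase to keratin filaments and is mutated in an inherited enamel disorder, rose at both steps. It stood at 16.3, 28.5 and 51.9, 1.75-fold (FDR = 0.00823), 1.82-fold (FDR = 0.00475) and, end to end, 3.18-fold higher (FDR = 3.03e-04) per the authors' deposited table. Csnk1a1, the kinase, stood at 158, 163 and 169 and passed in no comparison (FDR = 0.634, 0.578 and 0.255) per the authors' deposited table. Fam83g, a relative of Fam83h, peaked in secretory cells at 31.5, against 6.26 in the cervical loop (FDR = 0.00110) and 17.0 in maturation (FDR = 0.0220), per the authors' deposited table. The cytolinker dystonin (Dst), which joins keratin to hemidesmosomes, had the same order, with 368, 1442 and 499, 3.92-fold higher at the first step (FDR = 0.00110) and 2.89-fold lower at the second (FDR = 0.00163) per the authors' deposited table. Plectin (Plec), another linker of that plaque, stood at 282, 303 and 361 and passed only for maturation against the cervical loop (1.28-fold higher, FDR = 0.0367) per the authors' deposited table.

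Among the transcription factors listed, Tfap2a, an AP-2 factor of ectoderm, stood at 10.4, 2.54 and 4.32, 4.10-fold lower in secretory than cervical loop cells (FDR = 3.83e-04) and 2.40-fold lower in maturation (FDR = 1.94e-04) per the authors' deposited table. Grhl2, of epithelial junction programmes, stood at 11.9, 4.34 and 6.47, 2.74-fold lower (FDR = 0.00575) and 1.84-fold lower (FDR = 0.0216) against the cervical loop per the authors' deposited table. Klf4, of differentiating epidermis, stood at 48.6, 50.5 and 23.4, 2.15-fold lower in maturation than in secretory cells (FDR = 0.00926) per the authors' deposited table. Other factors of the list, named after their values were seen, were higher in maturation than in the cervical loop. Tp63, the p53 relative of basal epithelium, stood at 50.3, 101 and 127 (2.52-fold higher end to end, FDR = 6.64e-04) per the authors' deposited table. Klf5 stood at 5.49, 11.2 and 49.3 (8.98-fold higher, FDR = 0.00822), Ovol2 at 1.05, 0.746 and 3.87 (3.68-fold higher, FDR = 0.00201) and Tfap2c, another AP-2 factor, at 1.68, 2.77 and 4.71 (2.81-fold higher, FDR = 0.00160) per the authors' deposited table. The factors thus moved in both directions, as did the AP-2 factors among them. Krtcap3 stood at 1.44, 3.66 and 3.97 (2.54-fold higher at the first step, FDR = 0.00331) and Krtcap2 at 23.0, 24.3 and 16.9 (1.44-fold lower at the second, FDR = 0.0209) per the authors' deposited table; both names recall keratinocytes, and neither gene encodes a keratin.

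Other intermediate filament genes were set beside the keratins, and 12 of 16 listed were measured. Of these 1 was higher and 3 lower in secretory than cervical loop cells, 3 higher and 1 lower in maturation than secretory cells, and 3 higher and 5 lower in maturation than cervical loop cells, with median log2 ratios of -0.60, 0.53 and 0.47. All genes passed as higher and lower at 16.5% and 25.2%, 21.8% and 21.1%, and 24.1% and 33.7%, and the counts of the first 2 comparisons lie near or below these shares. Vimentin (Vim), the filament of mesenchymal cells, stood at 530.0, 342 and 381, 1.55-fold lower in secretory (FDR = 0.00672) and 1.39-fold lower in maturation cells (FDR = 0.0102) than in the cervical loop per the authors' deposited table. Lamin B1 (Lmnb1), of the nuclear envelope, stood at 47.8, 21.7 and 8.35, lower at each step (FDR = 0.00129 and 4.48e-04) per the authors' deposited table. Lmnb2 stood at 9.49, 4.04 and 3.27, 2.35-fold lower at the first step (FDR = 0.00382) per the authors' deposited table. Nestin (Nes), a filament of progenitor cells, stood at 54.5 and 12.0 in cervical loop and maturation (FDR = 0.00690), and Ina, named after its values were seen, at 0.363 and 0.10 (FDR = 0.0213), per the authors' deposited table. Of 8 mesenchyme markers, 1 was higher and 1 lower in secretory than cervical loop cells. Between cervical loop and maturation 3 were higher and 0 lower. The shares of all genes given above for these comparisons apply here too. The part of mesenchymal cells in the values of Vim was not tested.

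Synemin (Synm), which joins filaments of other types, and filensin (Bfsp1), known from the lens, went the other way. Synm stood at 6.52, 8.42 and 43.9, 5.21-fold higher in maturation than in the secretory stage (FDR = 0.00102) and 6.73-fold higher than in the cervical loop (FDR = 3.66e-04) per the authors' deposited table. Bfsp1 stood at 1.59, 2.70 and 6.40 and passed at each step (FDR = 0.0151 and 0.00243) per the authors' deposited table. Lmna stood at 74.5, 87.2 and 102 and was 1.37-fold higher in maturation than in the cervical loop (FDR = 0.0251), and Sync stood at 1.28 and 2.48 in secretory cells and maturation (FDR = 0.0276), per the authors' deposited table. Muscle and pericyte markers, all 7 measured, summed to 117, 97.4 and 212, or to 36.7, 42.9 and 189.7 without Acta2. Between cervical loop and maturation 2 passed as higher and 1 as lower, against 24.1% and 33.7% of all genes. The part of such cells in the rise of Synm was not tested.

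Markers of epithelia outside the tooth were set beside the keratins. Of 16 markers of cornified or oral surface epithelium, keratins left out, 6 were measured, and their means summed to 55.5, 85.5 and 196 per the authors' deposited table. Without Calml3 the other 5 summed to 51.8, 76.0 and 20.6, lowest in maturation, a drop that came mainly from Dsg1. Of the 6, 3 were higher and 1 lower in maturation than in secretory cells, where 21.8% and 21.1% of all genes passed. Calml3, a calmodulin-like protein of epidermis, rose from 3.73 and 9.52 to 176 (FDR = 2.14e-04 against secretory cells), while Dsg1, a desmosomal cadherin, fell from 49.0 and 72.8 to 10.7 (FDR = 0.00175), per the authors' deposited table. Casp14 stood at the floor in the cervical loop and at 1.80 in maturation per the authors' deposited table. Hair follicle markers, 4 of 7 measured, summed to 85.5, 102 and 75.6 per the authors' deposited table. Most of this was Msx2, and without it the sums were 6.11, 5.78 and 7.41, highest in maturation. Of the 4 markers, 1 was higher and 0 lower between cervical loop and maturation, against 24.1% and 33.7% of all genes. The marker that passed was Tchh, at 0.350, 0.802 and 1.99 (FDR = 8.02e-04 end to end) per the authors' deposited table. Mesenchyme markers summed to 9727, 10319 and 13877, and myeloid markers to 229, 195 and 676, per the authors' deposited table. The part of such cells in the rise of Krt14, Krt16, Krt42, Krt71 and Krt76 was not tested.

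The second family, the septins, had more lower than higher calls in each comparison. Most septin differences that passed were toward lower levels after the cervical loop, with folds from 1.19 for Sept2 to 7.00 for Sept3. Of 11 septins, 2 were higher and 4 lower in secretory than in cervical loop cells (16.5% and 25.2% of all genes), 1 higher and 4 lower in maturation than in secretory cells (21.8% and 21.1%), and 1 higher and 7 lower in maturation than in the cervical loop (24.1% and 33.7%). Median log2 ratios were -0.23, -0.19 and -0.60, beside -0.14, 0.01 and -0.12 for all genes. In secretory against cervical loop cells, the septin counts and median thus lie near those of all genes. With a fold of at least 2 required as well, the 7 septins lower in maturation than in the cervical loop became 3, and none of the 2 and 1 higher calls remained.

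**Figure D4:**
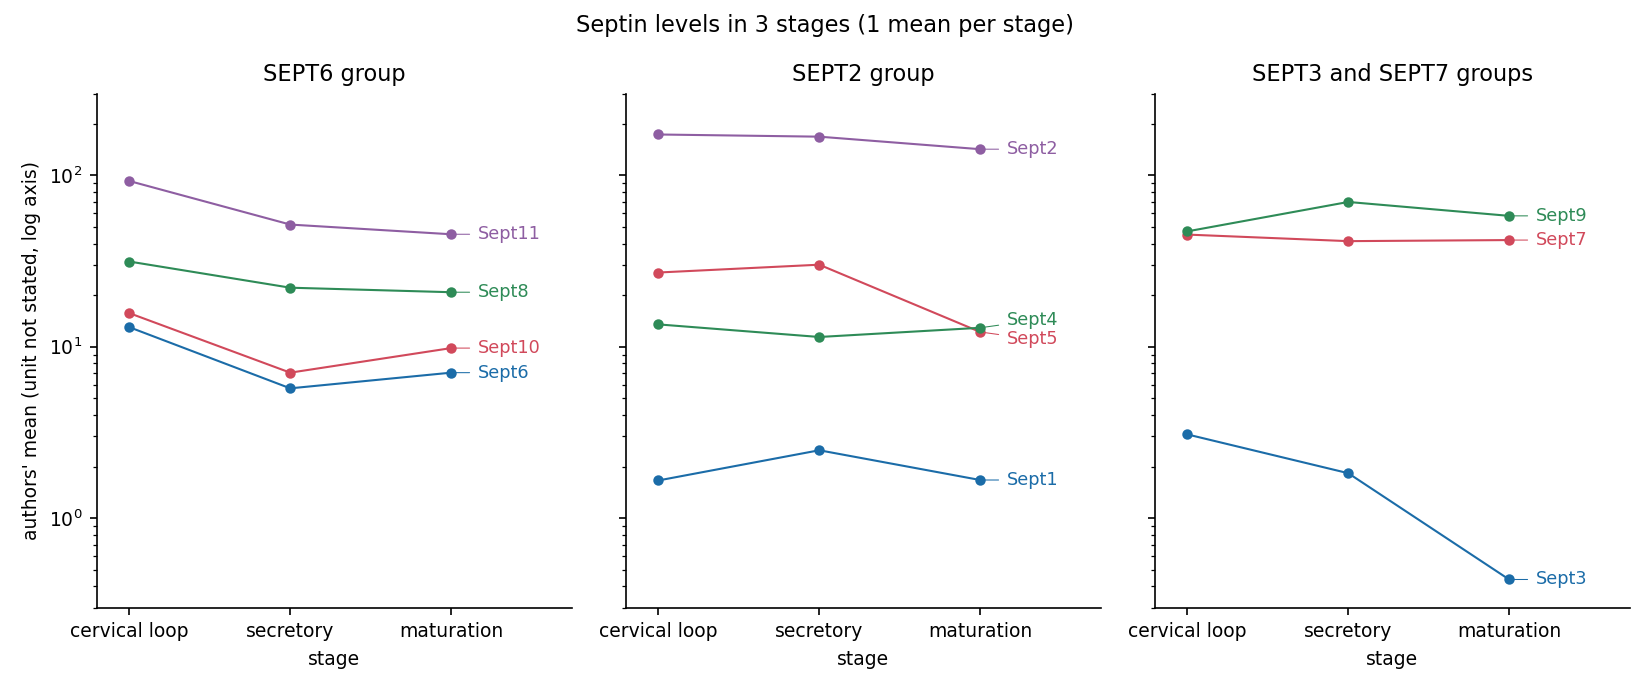
Authors' mean (log axis, unit not stated) of the 11 septins by sequence group, 1 point per stage without error. All 4 members of the SEPT6 group start at their highest in the cervical loop, Sept9 is highest in secretory cells, and Sept3 declines from 3.08 to 0.439.

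The SEPT6 group, interchangeable partners in the septin rod, was lower in both later stages throughout. All 4 of its members were lower in secretory cells and all 4 lower in maturation than in the cervical loop. Of all genes, 25.2% and 33.7% passed as lower in these comparisons. Sept11, which binds other septins at stress fibres, stood at 92.6, 51.6 and 45.3 per the authors' deposited table. It was 1.79-fold lower in secretory cells (FDR = 0.00108) and 2.04-fold lower in maturation (FDR = 2.01e-04) than in the cervical loop per the authors' deposited table. Sept10 stood at 15.7, 7.06 and 9.82 per the authors' deposited table. It was 2.22-fold lower in secretory cells than in the cervical loop (FDR = 5.46e-04) per the authors' deposited table. From the secretory stage to maturation it was 1.39-fold higher (FDR = 0.00485 per the authors' deposited table), the single septin to pass as higher over that step. Sept10 still lay 1.60-fold below the cervical loop in maturation (FDR = 0.00105 per the authors' deposited table).

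Sept6, after which the group is named, stood at 13.0, 5.72 and 7.06, 2.27-fold lower in secretory cells (FDR = 0.00525) and 1.84-fold lower in maturation (FDR = 0.00945) than in the cervical loop per the authors' deposited table. Sept8 stood at 31.4, 22.1 and 20.8, 1.42-fold (FDR = 0.0139) and 1.52-fold lower (FDR = 0.00418) per the authors' deposited table. Between secretory cells and maturation, Sept6, Sept8 and Sept11 did not pass (FDR = 0.189, 0.518 and 0.0722 per the authors' deposited table). The summed means of the group were 153, 86.5 and 82.9, or 60.1, 34.9 and 37.6 without Sept11.

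Markers of dividing cells were set beside the SEPT6 group. Septins act at the cleavage furrow. All 8 markers of dividing cells were lower in secretory cells and in maturation than in the cervical loop, against 25.2% and 33.7% of all genes. Between the later stages 0 passed. Their means summed to 719, 93.3 and 84.2 per the authors' deposited table. The SEPT6 group members were between 1.42-fold and 2.27-fold lower at the first step. The part of dividing cells in the lower values of the SEPT6 group was not tested.

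In the SEPT2 group, 3 of 4 members were lower in maturation than in secretory cells, against 21.1% of all genes. Sept2, a septin of the cytokinetic ring and of cilia, stood at 173, 168 and 142, 1.19-fold lower in maturation than in secretory cells (FDR = 0.0356) and 1.23-fold lower than in the cervical loop (FDR = 0.0148) per the authors' deposited table. Sept5, a septin that binds syntaxin and is best known at synapses, stood at 27.1, 30.1 and 12.2 per the authors' deposited table. It was 2.47-fold lower in maturation than in secretory cells (FDR = 8.35e-04) and 2.22-fold lower than in the cervical loop (FDR = 7.88e-04) per the authors' deposited table, with no pass at the first step (FDR = 0.415). Sept1 stood at 1.66, 2.49 and 1.67, highest in secretory cells by 1.51-fold over the cervical loop (FDR = 0.0206) and 1.49-fold over maturation (FDR = 0.0147) per the authors' deposited table. Sept4, of the sperm annulus and of cell death pathways, stood at 13.5, 11.4 and 12.9 and passed in none (FDR = 0.360, 0.419 and 0.859 per the authors' deposited table).

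Sept3 and Sept9, of the SEPT3 group, had opposite calls between cervical loop and maturation. Sept3, a neuronal septin, stood at 3.08, 1.83 and 0.439 per the authors' deposited table. It was 4.16-fold lower in maturation than in secretory cells (FDR = 0.00553) and 7.00-fold lower than in the cervical loop (FDR = 0.00110) per the authors' deposited table, or 1.97-fold and 2.83-fold with 1 added to both means. The first step of Sept3 did not pass (FDR = 0.145 per the authors' deposited table). Sept9, which bundles microtubules, stood at 47.1, 69.9 and 58.0 per the authors' deposited table. It was 1.48-fold higher in secretory cells (FDR = 0.00889) and 1.23-fold higher in maturation (FDR = 0.0441) than in the cervical loop per the authors' deposited table, and the drop between them did not pass (FDR = 0.0838). Sept7, the sole member of its group and a part of nearly every septin rod, stood at 45.1, 41.3 and 41.9, with FDR values of 0.495, 0.989 and 0.409, per the authors' deposited table.

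Against these near-level means the partners shifted. The mean of Sept9 went from 0.272 of that of Sept2 in the cervical loop to 0.416 in secretory cells and 0.410 in maturation, and the mean of Sept11 from 2.05 times that of Sept7 to 1.25 and 1.08 times. These ratios were not tested. Sept5 and Sept3 share a neuronal background, and nerve and Schwann markers, 9 of 10 measured, summed to 58.1, 63.0 and 45.3 per the authors' deposited table, or to 19.7, 24.0 and 42.2 without Tubb3. Among them Tubb3, a neuronal tubulin, stood at 38.3, 38.9 and 3.19 (FDR = 2.79e-04 for maturation against secretory cells), Snap25 at 0.169, 1.07 and 9.35, and Elavl4 at the floor in both later stages, per the authors' deposited table. Sept1 is best known from lymphocytes, and the 3 of 6 lymphoid markers measured summed to 0.622, 0.914 and 0.966 per the authors' deposited table. The part of such cells in the values of Sept1, Sept3 and Sept5 was not tested.

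At the level of transcripts, no septin passed for make-up. The smallest FDR was that of Sept11, for maturation against the cervical loop (FDR = 0.0554 for make-up per the authors' deposited tables). Its main transcript, Sept11-202, stood at 87.8 and 41.8 (2.10-fold lower, FDR = 1.99e-04) and Sept11-201 at 4.66 and 3.97 (FDR = 0.117) per the authors' deposited tables. Sept10-202 stood at 10.7 and 4.21 in cervical loop and secretory cells (2.54-fold lower, FDR = 0.00609) per the authors' deposited tables. Sept5-201 stood at 21.7 and 8.69 in secretory cells and maturation (FDR = 0.00207) per the authors' deposited tables. For the main transcripts of the other septins, no comparison of cervical loop and maturation passed per the authors' deposited tables: Sept4-210 stood at 6.23 and 5.04 (FDR = 0.781), Sept6-203 at 5.48 and 3.83 (FDR = 0.436), Sept7-202 at 43.6 and 40.5 (FDR = 0.920) and Sept8-201 at 28.9 and 19.4 (FDR = 0.417).

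The septin means together came to 464, 412 and 352, a ratio of 0.888 at the first step and 0.854 at the second. As a share of all means they were 0.106%, 0.0672% and 0.0726%, and on that scale the second ratio was 1.08, in the other direction. Sums of the SEPT2 group were 216, 212 and 168, and of the SEPT3 group 50.2, 71.7 and 58.4. No sum has a test.

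Genes whose proteins bind or steer septins were measured for all 25 on the list. Of these 7 were higher and 11 lower in secretory than cervical loop cells, 5 higher and 7 lower in maturation than secretory cells, and 8 higher and 13 lower in maturation than cervical loop cells, with median log2 ratios of -0.79, -0.21 and -0.23. The shares of all genes were 16.5% and 25.2%, 21.8% and 21.1%, and 24.1% and 33.7%, and the counts of the second comparison lie near them. Anillin (Anln), the scaffold that brings septins to the cleavage furrow, stood at 11.4, 2.04 and 2.32, 5.58-fold lower in secretory cells than in the cervical loop (FDR = 5.44e-04) per the authors' deposited table. Racgap1, of the centralspindlin complex, stood at 33.2, 4.13 and 3.57, 8.05-fold lower at that step (FDR = 4.24e-04) per the authors' deposited table. The mitotic kinase gene Aurkb stood at 21.6, 4.55 and 2.19 and was also lower at the second step (2.08-fold, FDR = 0.00447) per the authors' deposited table. Non-muscle myosin gene Myh10 stood at 182, 81.9 and 63.0, lower at each step (FDR = 4.60e-04 and 0.00632) per the authors' deposited table. The lower partners thus include genes of cytokinesis, several of which are known to be made mainly by dividing cells, and the part of such cells in these values was not tested.

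Other partners moved in both directions. Cdc42, the small GTPase whose effectors bind septins, stood at 57.7, 81.1 and 73.6, 1.41-fold higher in secretory cells (FDR = 0.00220) and 1.28-fold higher in maturation (FDR = 0.00366) than in the cervical loop per the authors' deposited table. Its effector gene Cdc42ep3 stood at 29.9, 71.1 and 49.3, 2.38-fold higher at the first step (FDR = 0.00403) per the authors' deposited table. Cdc42ep4 stood at 30.7, 28.0 and 40.8 (1.46-fold higher at the second step, FDR = 0.00721), Cdc42ep1 at 17.9, 13.7 and 21.6 (1.58-fold higher at the second, FDR = 0.0315) and Cdc42ep2 at 2.05, 2.75 and 3.58 (1.75-fold higher end to end, FDR = 0.00617) per the authors' deposited table. Cdc42ep5, named after its values were seen, stood at 2.95, 1.54 and 1.83, 1.91-fold lower at the first step (FDR = 0.00504) and 1.61-fold lower end to end (FDR = 0.00839) per the authors' deposited table. Cdc42ep2 passed at neither single step (FDR = 0.0847 and 0.109 per the authors' deposited table), so the effectors of Cdc42 had no shared course. Stx1a, a syntaxin of vesicle fusion, stood at 3.08, 1.79 and 1.12 (2.74-fold lower end to end, FDR = 0.00457) and Dpysl5 at 1.88, 0.558 and 0.152 (12.4-fold lower, FDR = 0.00178) per the authors' deposited table, both named after their values were seen. Map4, a microtubule protein that competes with septins, stood at 137, 147 and 225, 1.53-fold higher at the second step (FDR = 0.00771) per the authors' deposited table. Cep164, of the base of cilia, stood at 14.9, 27.7 and 16.9, 1.86-fold higher in secretory than cervical loop cells (FDR = 0.00510) per the authors' deposited table.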

How the data were processed

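RNA of dissected enamel organ cells from 3 stages was sequenced where its integrity number (RIN) was at least 7, per the labels' protocols. Per the submitters' processing notes, the tools were STAR 2.5.3a and Partek, and the build was rn6. Not given in the sources used here are the annotation, the normalisation, the filters and the terms of the model. The authors deposited 1 mean per gene and stage, held here as a score because its unit is not stated, with p-values and fold ratios for each pair of stages. Isoform tables give the same for transcripts. The deposited p-values could not be refitted. Adjusted by Benjamini-Hochberg over all 16516 genes, they equalled the deposited FDR. A deposited ratio is of means, whereas the scale of the test is not stated, so a fold and its FDR may measure different quantities. Nothing says that libraries came from pooled tissue, and the spread behind a p-value is that between libraries.

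From these values Python 3.11.15 with pandas 2.3.3 took the direction of each change from the means, counted calls at an FDR of 0.05 and gave no fold where a mean was 0.1 or less. Of the scripts, only the Benjamini-Hochberg adjustment was tested on simulated data. Named are every septin, every keratin with a mean of at least 1 in any stage, and, of each partner list, at most 3 genes per comparison and direction with the smallest p and a mean of at least 1, plus 6 genes chosen by role. The members and lists were chosen with earlier results of these data known. Promoter windows come from RefSeq (GRCr8), and no coordinates of the authors' build were used.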

Additional observations from a re-analysis of the deposited data

How the results depend on the processing

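Leaving out single libraries and a paired analysis by rat need values per library, which are not analysed here. No paired analysis was possible because each stage is 1 mean. The first step is from cervical loop to secretory cells, the second from there to maturation. With a fold of at least 2 required, keratins higher in secretory than cervical loop cells numbered 1. Septins then numbered 0 higher and 2 lower at the first step, 0 and 2 at the second, and 0 and 3 end to end. At an FDR of 0.01, keratins lower in maturation than cervical loop numbered 3, septins higher in secretory than cervical loop cells 1, septins lower in maturation than secretory cells 2, and septins higher in maturation than cervical loop 0.

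Sums moved with their denominator. At the first step, at the second and end to end, the keratin ratio was 1.47, 2.07 and 3.04. It was 1.05, 2.62 and 2.74 as a share of all means, 1.27, 2.16 and 2.75 as a share without Ambn, Amelx and Enam, and 1.34, 1.55 and 2.07 without Krt14. The septin ratio was 0.888, 0.854 and 0.758. It was 0.633, 1.08 and 0.684 as a share of all means, so that the second turned direction, 0.769, 0.894 and 0.687 as a share without the matrix genes, and 0.839, 0.862 and 0.724 without Sept2. Scaling by median ratios shifted the log2 ratios of all genes by 0.14, -0.01 and 0.13, and scaling to the sum without the matrix genes by -0.21, 0.07 and -0.14.

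Under median ratio scaling, 6 ratios that had not passed turned direction. They were 1.09 for Krt17, 1.01 for Krt28, 1.05 for Sept4 and 1.01 for Sept7 end to end, and 1.07 for Sept2 and 1.01 for Sept7 at the first step. This scaling moves all ratios of a comparison by one constant and leaves the deposited FDR as it is, so it can turn only ratios near 1 and says nothing of the calls. For the same reason the 12 counts of calls are no check under either scaling. With genes below a mean of 1 left out and p-values adjusted again, these counts stayed within 1.5 times, as did the 6 isoform counts. Pairs with Krt16 or Krt19 at the floor gave no fold. Adding 1 to the means changes only the size of a fold. With p-values adjusted again over the 14181 genes reaching 1, all 76 folds kept their call. Keratin sums from the stage lists stayed alike, while septins are written there as dates and could not be matched. Depth per library bounds what can be said of members near 1 or below.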
